A study of Mus musculus with 36 samples.

Results

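The effect of the TRAMP transgene on the miRNAs of the A537T prostate at 10 weeks of age was measured by small RNA sequencing of 3 A537T-TRAMP and 3 A537T libraries, 6 of the 36 libraries of the study. Both groups were male mice, homozygous in every cell of the body for A537T, a knock-in that turns an alanine of ELAC2 into a threonine. The A537T line was made on a C56NL/6N background. The background of the TRAMP mice it was bred with is not given, so a strain difference between the groups was not tested. ELAC2 is the ribonuclease that removes the 3′ trailer of precursor tRNAs. The A537T-TRAMP mice were also heterozygous for TRAMP, in which the probasin promoter drives large T and small t of SV40 in prostate epithelium, so the transgene is not active in every cell of the lobe. RNA came from the ventral and lateral lobes, dissected away from the seminal vesicles, bladder and urethra. The libraries compared were numbers 4, 5 and 6 (A537T-TRAMP) and 34, 35 and 36 (A537T), and values are given below in that order. The columns of the tables carry no group name, so each library takes its group from the name of its table. That could not be checked, because the miRNA libraries measure neither the transgene nor Elac2 messenger RNA. The separate sequencing of total prostate RNA that the paper reports was not used here. For comparison, the same effect was computed in WT and in KO mice of 10 weeks (KO mice lack Elac2 in the prostate only, through a probasin-driven Cre) and in A537T mice of 30 weeks, with 6 libraries each.

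MiRNAs are short RNAs that load into Argonaute and repress messenger RNAs that pair with their seed, and those with the same seed form a family with shared targets. Many are cut from one long precursor as a cluster and then tend to move together. Large T antigen binds and inactivates the tumour suppressors RB and p53. E2F factors, which RB restrains, drive cell cycle genes, and several miRNA clusters lie inside such genes, while the miR-34 family is a direct transcriptional target of p53. In bulk tissue, miRNAs restricted to one cell type, such as miR-1a and miR-206 in striated muscle or miR-143 in smooth muscle, also report how much of that tissue a sample holds.

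The mature sequences of the miRNAs that the results turn on are shown 5′ to 3′, from RefSeq for GRCm38.p6, with the seed (bases 2 to 8) in capitals. Of the 512 miRNAs tested, 438 had a mature sequence in that source, and so did 18 of the 24 leading rises and falls, which are the 12 largest in each direction among miRNAs that passed the test, averaged at least 10 reads per 1000000 and did not overlap between the groups. The first set has the seed AUUGCAC. MiR-25-3p lies at chr5:138165332-138165353 (minus strand) in Mcm7, and miR-32-5p at chr4:56895272-56895293 (minus strand) in an intron of Tmem245. MiR-92a-3p belongs to the same family but comes from other clusters.
miR-25-3p: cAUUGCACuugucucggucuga
miR-32-5p: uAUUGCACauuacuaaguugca
miR-92a-3p: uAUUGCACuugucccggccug

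The second set has the seed AAAGUGC. MiR-93-5p (chr5:138165574-138165596, minus strand, in Mcm7) and miR-106b-5p (chr5:138165787-138165807, minus strand, in an intron of Mcm7) share a precursor with miR-25, and miR-17-5p (chr14:115043684-115043706, plus strand) lies in an exon of the non-coding host gene Mir17hg. MiR-19a-3p and miR-19b-3p, which follow, have the seed GUGCAAA, and miR-19a-3p lies at chr14:115044048-115044070 in the same host.
miR-93-5p: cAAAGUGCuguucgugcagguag
miR-106b-5p: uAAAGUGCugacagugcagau
miR-17-5p: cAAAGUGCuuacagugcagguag
miR-19a-3p: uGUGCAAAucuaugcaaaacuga
miR-19b-3p: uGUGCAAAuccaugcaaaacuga

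The third set shares the seed AGCAGCA but comes from loci whose miRNAs moved in different directions. MiR-15b-5p lies at chr3:69009775-69009796 (plus strand) in an intron of Smc4, miR-195a-5p at chr11:70235062-70235082 and miR-497a-5p at chr11:70234730-70234751 (both plus strand) next to each other outside an annotated host, and miR-322-5p at chrX:53054306-53054327 (minus strand). MiR-16-5p has 2 hairpins, one beside miR-15b and one beside miR-15a, and its reads cannot be split between them.
miR-15b-5p: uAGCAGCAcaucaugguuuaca
miR-16-5p: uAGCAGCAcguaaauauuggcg
miR-195a-5p: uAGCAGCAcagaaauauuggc
miR-497a-5p: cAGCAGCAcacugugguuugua
miR-322-5p: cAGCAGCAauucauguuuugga

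The 2 miRNAs with the largest rises, the most abundant miRNA of the A537T-TRAMP libraries and 5 of the leading falls complete the set. MiR-3473e lies at chr5:31667296-31667316 (minus strand) in an intron of Rbks and miR-3473b at chr10:41670774-41670793 (plus strand), miR-148a-3p at chr6:51269829-51269850 (minus strand), miR-206-3p at chr1:20679055-20679076 (plus strand), miR-133b-3p near it at chr1:20682834-20682855, and miR-34a-5p at chr4:150068473-150068494 (plus strand). MiR-365-3p has 2 hairpins, on chromosomes 11 and 16, and miR-378c lies at chr14:46954905-46954925 (minus strand).
miR-3473e: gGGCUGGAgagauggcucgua
miR-3473b: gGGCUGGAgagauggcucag
miR-148a-3p: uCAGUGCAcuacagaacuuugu
miR-206-3p: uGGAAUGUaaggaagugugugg
miR-133b-3p: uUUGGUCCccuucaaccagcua
miR-378c: aCUGGACUuggagucagaagc
miR-34a-5p: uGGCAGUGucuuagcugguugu
miR-365-3p: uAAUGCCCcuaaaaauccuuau

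The A537T-TRAMP libraries held 12719782, 8248079 and 13014486 miRNA reads, and A537T libraries 34 and 36 held 14482305 and 15770867. Library 35 held only 655455 reads over 541 detected miRNAs, so that 1 read there was worth 1.53 reads per 1000000, against 0.0634 to 0.121 in the other 5. Levels are therefore least certain in library 35. All levels are in RPM, reads per 1000000 miRNA reads, a share of the miRNA pool, so a rise of a very abundant miRNA lowers the share of every other one. The 10 most abundant miRNAs held 69.8% to 71.0% of the pool in A537T-TRAMP and 67.4% to 69.5% in A537T. Changes are log2 differences of the mean of log2(RPM + 1), which understates the change of low miRNAs, with the SE and the Benjamini-Hochberg adjusted p of limma over all miRNAs tested. With 3 libraries a group, each p-value sets the difference of means against the spread between these libraries. The variance of each miRNA was drawn toward a trend over all miRNAs tested.

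Of 512 miRNAs with a mean of at least 1 RPM, 169 passed an adjusted p of 0.05 in limma, 48 higher (9.38% of those tested) and 121 lower (23.6%) in A537T-TRAMP. The 3 and 3 libraries did not overlap for 259 miRNAs (50.6% of those tested), among them 168 of the 169. The one exception was miR-7689-3p, singled out after its values were seen, whose call was lost without library 4, 5, 6, 34 or 35 (adjusted p = 0.0527 to 0.135 in limma). The median change of all miRNAs was -0.29, and with trimmed-mean (TMM) scaling, which assumes that most miRNAs do not change, it was -0.04. Under that scaling 173 miRNAs passed and the split became 84 higher and 89 lower, and with edgeR's quasi-likelihood test on the recovered reads it was 102 higher and 68 lower. The direction of small changes thus depends on the scaling, and so does the balance of rises and falls. The count also depended on single libraries, at 134 (39 higher and 95 lower) without library 35, 113 (28 and 85) without library 4 and 87 (21 and 66) without library 36. The 24 leading miRNAs kept their direction under every scaling, test and left-out library tried, and at least 9 of the 12 rises and 10 of the 12 falls passed in each of these runs.

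**Figure D1:**
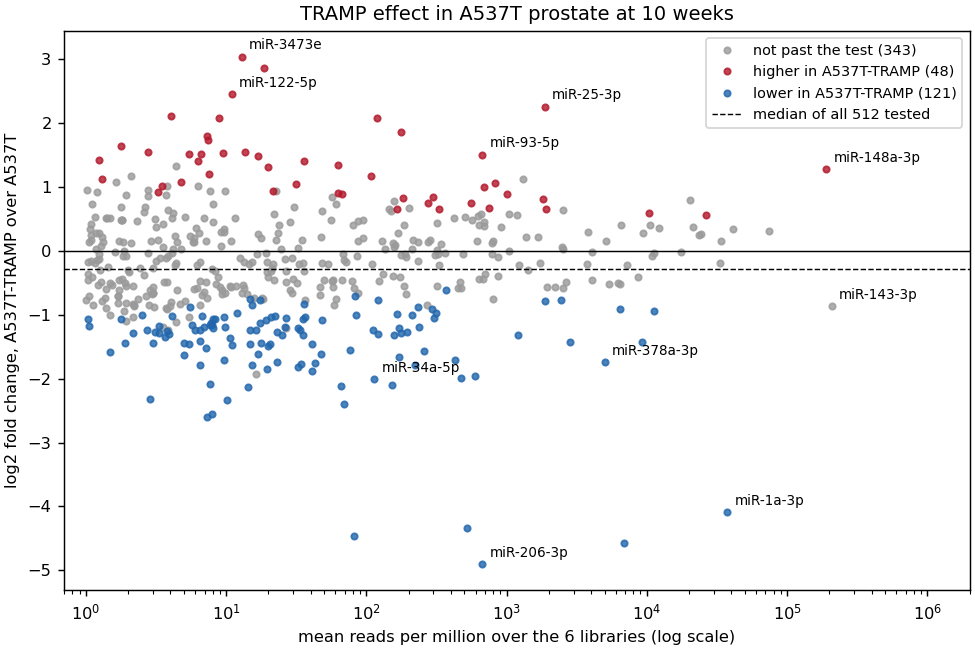
Each point is 1 of the 512 miRNAs, with the mean level in RPM over the 6 libraries on a log axis and the log2 change (A537T-TRAMP minus A537T) on the y axis; coloured points passed an adjusted p of 0.05 in limma. The cloud is centred at -0.29, with 5 skeletal muscle miRNAs below -4 and miR-25-3p at 2.26 as the largest rise among miRNAs above 100 RPM.

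The cluster inside Mcm7, a gene for a subunit of the replicative helicase, rose as a whole. All 6 of its mature miRNAs tested, both arms of miR-25, miR-93 and miR-106b, passed, with a median change of 1.69. MiR-25-3p, its most abundant product, was at 3670, 2974 and 2634 RPM in A537T-TRAMP and at 620, 731 and 576 in A537T. The lowest A537T-TRAMP library was thus well above the highest A537T library, a change of 2.26 (SE 0.21, adjusted p = 0.000679 in limma), or 4.79-fold. MiR-93-5p was at 1200, 778 and 1012 against 337, 412 and 294 RPM, a change of 1.51 (SE 0.23, adjusted p = 0.00257 in limma). MiR-106b-3p rose by 1.86 and miR-106b-5p by 1.18, and miR-25-5p and miR-93-3p, the low arms, by 2.08 and 1.53. The call of miR-93-3p was lost without library 4, 5 or 6 (adjusted p = 0.0527 to 0.057 in limma).

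The related miR-17/92 cluster on chromosome 14, a known oncogenic cluster named for miR-17 and miR-92a, rose in part. Of its 9 miRNAs tested, 3 passed, and all 3 were higher. MiR-19b-3p, which is also made from the miR-106a and miR-363 cluster on the X chromosome, was at 73.9, 90.5 and 109 RPM against 35.2, 36.6 and 32.5, with no overlap. MiR-19a-3p rose by 1.55 and miR-17-5p by 0.65, the latter with an adjusted p of 0.0456 in limma that became 0.0693 to 0.126 without library 4, 6, 34, 35 or 36. MiR-92a-3p, with the seed of miR-25-3p, was at 1016, 611 and 845 RPM against 602, 761 and 877, so the groups overlapped and the change of 0.13 (adjusted p = 0.717 in limma) did not pass. Over the 3 clusters together, 9 of 17 miRNAs passed, all higher, with a median of 0.87 beside -0.29 for all miRNAs tested, and 11 of 17 passed with TMM. The sum of the 5 miRNAs with the seed AUUGCAC was 4786, 3643 and 3561 RPM in A537T-TRAMP and 1277, 1542 and 1503 in A537T. Of that sum, added over the 6 libraries, miR-25-3p made up 68.7%.

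MiRNAs of the miR-15/16 hairpins were higher as well. Those with the seed AGCAGCA repress cyclins and BCL2, and of 6 with that seed tested, miR-322-5p among them, 3 passed, all higher. The miR-15/16 list leaves out miR-322 but also holds opposite arms, whose seeds differ. Of 10 miRNAs of the list tested, 7 passed, all higher, with a median of 0.87. The count was 2 without library 4 or 36, 3 without 6 or 34, 5 without 35 and 6 without 5. MiR-15b-5p, from the intron of the condensin gene Smc4, was at 275, 128 and 180 RPM against 38.3, 58.0 and 36.4, a change of 2.07 (SE 0.32, adjusted p = 0.00231 in limma). All 3 A537T-TRAMP libraries were above the A537T libraries, with library 4 the highest. MiR-195a-5p was at 795, 534 and 775 RPM against 405, 414 and 414, a change of 0.75, and miR-497a-5p, its neighbour, changed by 0.83. MiR-195a-5p no longer passed without library 4, 6, 34, 35 or 36 (adjusted p = 0.0654 to 0.0825 in limma), nor miR-497a-5p without 4, 6, 34 or 36 (0.0654 to 0.0921). MiR-16-5p, the most abundant member, was at 1289, 978 and 1464 against 763, 888 and 807 RPM. Its groups did not overlap either, but the change of 0.58 missed the threshold (adjusted p = 0.0635 in limma), which it passed with TMM scaling (0.0202).

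The cluster of miR-322 and miR-503 on the X chromosome, whose miR-322-5p has the seed of miR-15b-5p and which is known from differentiating muscle, went the other way. Of its 9 miRNAs tested, 5 passed, all lower, with a median of -1.01, though only 2 passed with TMM, with edgeR or without library 35, 3 without library 5 or 6 and 1 without library 4 or 36. MiR-322-3p was at 11.2, 12.9 and 21.1 RPM against 36.9, 54.9 and 69.4, a change of -1.77 (SE 0.32, adjusted p = 0.00459 in limma). Its partner arm miR-322-5p was at 9.04, 11.6 and 20.1 against 15.3, 30.5 and 23.97, with overlap and no call (-0.75, adjusted p = 0.126 in limma). MiR-351-5p and miR-450a-5p fell by 1.31 and 1.01, and neither passed without library 4, 35 or 36, nor miR-450a-5p without library 5. Summed over the 6 miRNAs with the seed AGCAGCA, the pool was nevertheless higher in A537T-TRAMP, at 2673, 1856 and 2749 RPM against 1374, 1588 and 1422.

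**Figure D2:**
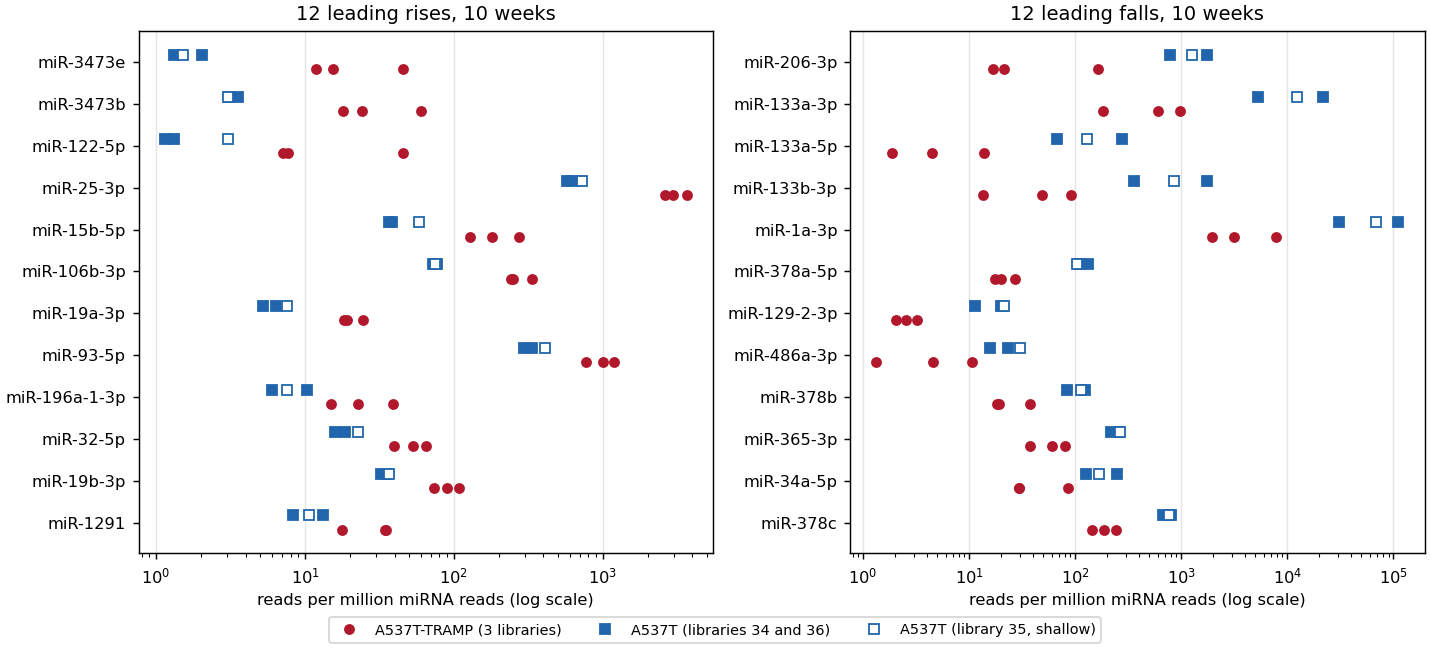
Levels in RPM (log axis) of the 12 leading rises and 12 leading falls, with 1 point per library, A537T-TRAMP and A537T in separate colours. The 24 were chosen to have no overlap, so in each the 3 A537T-TRAMP points lie on one side of the 3 A537T points.

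The largest rises by ratio were in miRNAs at low levels. MiR-3473e was at 11.9, 45.3 and 15.5 RPM in A537T-TRAMP and at 1.31, 1.53 and 2.03 in A537T, a change of 3.04 (SE 0.45, adjusted p = 0.00206 in limma). MiR-3473b, with the same seed and a nearly identical sequence, was at 18.1, 60.3 and 23.97 against 3.11, 3.05 and 3.55, a change of 2.86. Library 5 was the highest in both. Because the 2 are nearly identical, reads may have been split between them, and library 35 held 1 read of the first. Whether the reads came from the 2 annotated loci or from elsewhere in the genome was not tested. MiR-196a-1-3p, from a Hox cluster, rose by 1.49, miR-32-5p by 1.40 and miR-1291 by 1.31. Without library 36, miR-196a-1-3p and miR-1291 both had an adjusted p of 0.0596 in limma, and miR-1291 had 0.0504 without library 5.

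MiR-122-5p, the dominant miRNA of liver, was at 45.2, 7.15 and 7.68 RPM against 1.31, 3.05 and 1.14. It rose by 2.45 (SE 0.62, adjusted p = 0.0172 in limma), without overlap, with library 4 the highest. The call was lost without library 36 (adjusted p = 0.0654 in limma) and with a pseudocount of 10 (1.12, adjusted p = 0.0538). Without library 4 the change was 1.63 (adjusted p = 0.0207 in limma), and edgeR gave 4.30. At 10 weeks miR-122-5p was between 0.818 and 1.99 in WT, 2.29 and 2.92 in WT-TRAMP, 2.50 and 3.12 in KO and 2.19 and 3.32 in KO-TRAMP. At 30 weeks miR-122-5p was between 1.04 and 3.08 in A537T-TRAMP and between 1.23 and 2.19 in A537T, but it reached 15.95 in WT, 10.39 in WT-TRAMP and 8.60 in KO-TRAMP. These highest libraries of 30 weeks were above libraries 5 and 6, so only library 4 was above all other groups. The difference of its TRAMP effect from that in WT, KO or A537T at 30 weeks did not pass (adjusted p = 0.634, 0.325 and 0.0595 in limma), and whether other tissue or library handling entered these libraries was not tested.

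In absolute share the largest rise was that of miR-148a-3p, a miRNA abundant in secretory epithelium. It took 302061, 247060 and 248512 RPM in A537T-TRAMP and 152335, 115762 and 73986 in A537T, a change of 1.28 (SE 0.27, adjusted p = 0.00851 in limma), and 2.42-fold. Every A537T-TRAMP library was above every A537T library, among which library 36 was the lowest. Its relative miR-148b-3p rose by 0.68 (adjusted p = 0.0384 in limma, but 0.0569 to 0.124 without library 4, 5, 6, 35 or 36), and the other arm, miR-148a-5p, did not pass, at 832, 525 and 608 against 625, 491 and 315 RPM.

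The remaining 8 of the 10 most abundant miRNAs, miR-1a-3p aside, included 1 that passed. That was let-7c-5p, a member of the let-7 family that represses growth genes such as those of the RAS family, at 35998, 29924 and 28959 against 23053, 21367 and 19944 RPM (0.56, adjusted p = 0.0477 in limma, but 0.0658 to 0.138 with any 1 library left out). MiR-143-3p, made in smooth muscle, was at 72888, 214225 and 167736 against 164447, 256462 and 372576 RPM, with overlap and a change of -0.86 (adjusted p = 0.135 in limma). MiR-21a-5p, a miRNA raised in many tumours, was at 122181, 48585 and 82684 against 73190, 67326 and 52779, also with overlap (0.31, adjusted p = 0.481 in limma). MiR-26a-5p, let-7f-5p, let-7i-5p, miR-200b-3p and miR-99a-5p differed by 0.34, 0.16, 0.24, 0.26 and -0.18, none past the test, and miR-99a-5p took a positive sign with TMM or edgeR.

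The miRNAs of striated muscle, which repress non-muscle transcripts in muscle fibres and are not products of prostate epithelium, showed the largest falls. All 7 tested passed, all lower, with a median of -4.34, and 6 passed without library 4, 5, 6, 34 or 35. MiR-206-3p, restricted to skeletal muscle, was at 16.7, 21.3 and 163 RPM in A537T-TRAMP and at 1766, 1268 and 776 in A537T, a change of -4.91 (SE 0.73, adjusted p = 0.00206 in limma) and 30.0-fold lower. MiR-1a-3p was at 1965, 3136 and 7788 against 111756, 68861 and 30691, a change of -4.09 (SE 0.55, adjusted p = 0.00194 in limma). The lowest A537T library of each was above the highest A537T-TRAMP library, with library 6 the highest of its group in both and library 34 the highest of the A537T group. MiR-133a-3p fell by 4.57, miR-133a-5p by 4.46 and miR-133b-3p by 4.34.

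The 4 defining markers miR-1a-3p, miR-133a-3p, miR-133b-3p and miR-206-3p were present in every library. Together they took 0.218%, 0.381% and 0.903% of the reads in A537T-TRAMP and 13.7%, 8.34% and 3.72% in A537T. The muscle share of the other 30 libraries ran from 0.187% to 30.6% with a median of 0.489%. It was 9.71% to 30.6% in WT of 10 weeks and 0.734% to 6.49% in KO of 10 weeks, but 0.355% to 0.545% in A537T of 30 weeks. The A537T libraries of 10 weeks were therefore, with WT, among those that stood high, and the A537T-TRAMP libraries were at the level of most of the series. In bulk tissue, fewer cells of a type and less of an RNA per cell cannot be told apart, and muscle carried along at dissection and a transgene effect cannot be told apart by these shares. When the muscle miRNAs were left out of the library total, 171 miRNAs passed, 33 higher and 138 lower.

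**Figure D3:**
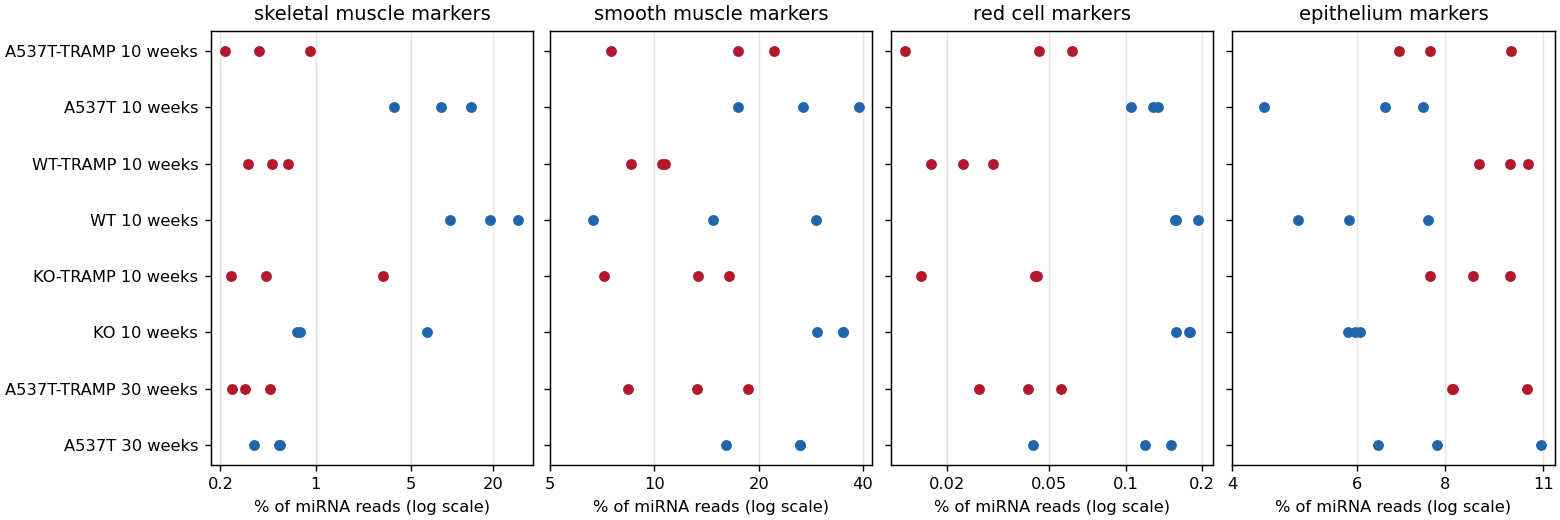
Share of miRNA reads (%, log axis) taken by the marker miRNAs of skeletal muscle, smooth muscle, red cells and epithelium, with 1 point per library in the groups compared. Skeletal muscle markers were at 0.218% to 0.903% in A537T-TRAMP and 3.72% to 13.7% in A537T at 10 weeks, while smooth muscle and epithelial shares overlapped.

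The miR-378 family of metabolic regulators, abundant in muscle and other oxidative tissue, fell with the muscle miRNAs but by less. All 5 members tested passed, all lower, with a median of -1.99, also with TMM, edgeR and each library left out. MiR-378a-3p was at 1940, 2305 and 2671 RPM against 7371, 8228 and 7414, a change of -1.74 (SE 0.20, adjusted p = 0.00113 in limma) and 3.35-fold lower. MiR-378a-5p fell by 2.39, miR-378b by 2.12, miR-378c by 1.99 and miR-378d by 1.56. In other groups miR-378a-3p was at 8451 to 13969 RPM in WT of 10 weeks, 2817 to 6476 in KO of 10 weeks and 1907 to 2453 in A537T of 30 weeks, and thus highest in the group with the highest muscle share. The median change of the family with the transgene was -1.99 here, -2.92 in WT, -0.88 in KO and -0.34 in A537T of 30 weeks, the same order as the medians of the muscle list (-4.34, -5.28, -1.07 and -0.42). Within A537T, however, the skeletal muscle markers took 13.7%, 8.34% and 3.72% of reads in libraries 34, 35 and 36. MiR-378a-3p did not follow that order there, at 7371, 8228 and 7414 RPM. The part of muscle in these falls was not tested.

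Of 4 red cell miRNAs tested, 3 passed, all lower, in limma, and 1 in edgeR. The count was 2 without library 4, 5 or 34 and 0 without library 36. MiR-451a, which is made without Dicer in erythroid cells, was at 44.0, 94.3 and 204 RPM against 333, 351 and 300, a change of -1.78 (SE 0.46, adjusted p = 0.0176 in limma). The merged miR-486ab-5p, found in red cells and in muscle, was at 92.1, 519 and 250 against 1004, 932 and 749 RPM, a change of -1.95, and miR-486a-3p changed by -2.13. The summed red cell markers were 0.0137% to 0.0615% of reads against 0.105% to 0.134%, without overlap, and their part in other results was not tested.

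The imprinted Dlk1-Dio3 cluster on chromosome 12 gave the most falls. Its miRNAs are expressed from the maternal chromosome, and they are abundant in the embryo, in brain and in mesenchymal cells. Of 55 miRNAs tested, 42 passed, all lower, with a median of -1.21. With TMM 33 passed, with edgeR 25 and without library 35 37, and with 1 library left out at a time the count ran from 22 to 42, with 27 without library 5 and 22 without library 36. The calls lay along the whole cluster. Grouped by position, which takes in some miRNAs outside the list and leaves out some in it, 10 of 17 passed lower at chr12:109563744-109595387. At chr12:109709065-109743784, 30 of 39 did, and both stretches are on the plus strand.

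MiR-127-3p, the most abundant of them, was at 631, 587 and 872 RPM against 1509, 1669 and 1958, a change of -1.31 (SE 0.22, adjusted p = 0.00336 in limma). MiR-541-5p was at 99.5, 102 and 105 against 221, 230 and 307, and miR-495-3p at 12.5, 11.8 and 17.1 against 39.9, 56.5 and 57.7 RPM. None of these overlapped, and miR-495-3p had the largest fall of the cluster, -1.82. MiR-381-3p, miR-434-3p, miR-411-5p and miR-379-5p fell by 1.26, 1.29, 1.21 and 0.97, and miR-381-3p did not pass without library 36 (adjusted p = 0.0553 in limma). Summed over the cluster, the level was 1672, 1576 and 2268 RPM in A537T-TRAMP and 3721, 4302 and 5038 in A537T, and thus lower in each A537T-TRAMP library than in any A537T library.

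Of miRNAs tied to tumour suppression, miR-34a-5p, which p53 induces, was at 29.3, 85.8 and 29.8 RPM against 246, 168 and 125. It fell by 2.01 (SE 0.42, adjusted p = 0.00824 in limma), 4.02-fold lower, with library 5 the highest of the A537T-TRAMP group but below every A537T library. MiR-34c-5p, from a locus on chromosome 9, was at 28.9, 36.3 and 63.1 against 65.0, 80.9 and 76.3 without a call (-0.85, adjusted p = 0.0557 in limma). Of the 6 miR-34 and miR-449 miRNAs tested, 2 passed lower and 1, the low miR-449a-5p of ciliated cells, passed higher. MiR-449a-5p, which has the seed of miR-34a-5p, was at 10.46, 8.37 and 8.91 against 1.24, 6.10 and 2.60 RPM, a change of 1.40 (adjusted p = 0.0272 in limma), and was named after its values were seen. Its call was lost without library 4, 5, 6, 34 or 36 (adjusted p = 0.0559 to 0.0828 in limma). MiR-365-3p, from 2 loci, was at 80.0, 37.8 and 60.2 against 257, 262 and 218, a change of -2.09 (SE 0.28, adjusted p = 0.00194 in limma). The low miR-129-2-3p fell by 2.33.

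Of 5 fibroblast miRNAs, 4 passed, all lower, but 1 with TMM, 2 without library 4, 5, 34 or 35 and 1 without library 36. That list holds miR-199a, miR-199b and miR-214. MiR-214 shares the host Dnm3os on chromosome 1 with a hairpin of miR-199a, while another miR-199a hairpin lies on chromosome 9. The most abundant member of the list, the merged miR-199ab-3p, was at 3559, 4456 and 5406 RPM against 7309, 8142 and 9687 (-0.92, adjusted p = 0.0141 in limma, 0.0566 with TMM, 0.054 without library 36). MiR-199b-5p had the largest fall, -1.71 (adjusted p = 0.00793 in limma), and passed with TMM as well (0.0125). Of 4 smooth muscle miRNAs 1 passed lower, near the share of all miRNAs that did. This was miR-145a-5p at 2261, 7278 and 6594 against 9818, 12660 and 16797 RPM (-1.42, adjusted p = 0.0287 in limma, 0.066 without library 35 and 0.103 without library 36). Among the 4 endothelial and hypoxia miRNAs, miR-126a-3p, miR-126a-5p and miR-210-3p passed, with changes of -0.94, -1.06 and -0.88, and none of the 3 passed with TMM, with edgeR or without library 5 or 35. Without library 36 1 passed, and 2 without 4, 6 or 34.

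Among epithelial miRNAs, calls ran in both directions. The miR-200 family holds epithelium in its state, its 3p arms repressing ZEB1 and ZEB2. Of 9 miRNAs of its hairpins, both arms counted, 2 passed, both higher, a 3p and a 5p arm, and 5 with TMM. The count was 1 without library 4 or 36, 3 without 5 and 4 without 34. MiR-141-3p was at 1100, 715 and 918 RPM against 529, 529 and 321 (1.00, SE 0.27, adjusted p = 0.0193 in limma, 0.0526 without library 4 and 0.0704 without library 36), and miR-200a-5p rose by 1.07. MiR-200a-3p, the second most abundant member, was at 29136, 19906 and 27837 against 19204, 15951 and 10165 without overlap, and just missed the threshold (0.79, adjusted p = 0.0504 in limma). Of the cluster of miR-183, miR-96 and miR-182 2 of 6 passed higher, and neither without library 4, 5, 6, 35 or 36. MiR-205-5p, typical of basal cells, was lower, at 1407, 2094 and 1987 against 2810, 3210 and 3239 RPM (-0.77, adjusted p = 0.0236 in limma, 0.109 with TMM, 0.0514 to 0.0826 without library 4, 35 or 36). The summed epithelial markers took 6.88% to 9.89% of reads in A537T-TRAMP and 4.43% to 7.45% in A537T, which overlap.

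Of 8 leukocyte miRNAs tested, 1 passed higher and 3 lower, with a median of 0.15. Of all miRNAs tested, 9.38% passed higher and 23.6% lower, so these few calls are not far from that share. Without library 4, 5, 34, 35 or 36 only 2 passed lower, and without library 5 3 passed higher. MiR-146a-5p, induced by NF-kB, was at 2469, 2311 and 2144 RPM against 1328, 1452 and 1162 (0.82, SE 0.19, adjusted p = 0.0124 in limma). MiR-155-5p, of activated lymphocytes and macrophages, was lower, at 24.2, 18.2 and 24.97 against 43.4, 50.4 and 49.3 (-1.06, adjusted p = 0.00963 in limma), and so were miR-223-3p of myeloid cells (-1.13) and miR-150-5p of mature lymphocytes (-0.71), the call lost in those runs. MiR-142a-5p, found in all blood cells, was at 294, 140 and 170 against 109, 130 and 97.8 RPM without a call (0.78, adjusted p = 0.0679 in limma).

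Of 10 neuroendocrine miRNAs 1 passed, lower, beside 23.6% of all miRNAs tested, and 0 did without library 4, 5, 35 or 36 but 2 without library 6 or 34. MiR-375-3p, abundant in neuroendocrine and secretory cells, was at 1383, 3279 and 790 RPM against 1105, 949 and 325, with overlap (1.13, adjusted p = 0.142 in limma), and miR-7a-5p changed by 0.30 without a call. Of the let-7 family 4 of 11 passed, all higher, but 0 without library 35 or 36 and 1 without each of the other libraries. Among the 4 was miR-98-5p at 1022, 1742 and 1190 against 685, 685 and 696 RPM (0.90). Lists with at most 1 call in limma were miR-26 and miR-101 (0 of 8, with 6 higher under TMM), miR-23/27/24 (0 of 9), miR-221 and miR-222 (0 of 4), miR-21 (0 of 2), miR-10 and miR-196 (0 of 6), miR-192, miR-194 and miR-215 (0 of 4), miR-99/100 and miR-125 (0 of 10), miR-29 (1 of 7), miR-181 (1 of 7) and miR-30 (1 of 11). The miR-30 and miR-181 calls were lost with any 1 library left out, though another miR-181 miRNA passed without library 35, and that of miR-29 was lost without library 4, 5 or 35, while 2 miR-29 miRNAs passed without library 6. Without library 34, 1 miRNA passed in each of the lists of miR-26 and miR-101 and of miR-23/27/24. In the Sfmbt2 intronic cluster, a rodent placental cluster, 3 of 17 passed, all lower, and 1 without library 4, 5 or 36. That is no larger a share than the 23.6% of all miRNAs tested that passed lower. The medians of the basal epithelium, miR-99/100 and miR-125, and miR-30 lists changed sign between limma and edgeR, from -0.43, -0.33 and -0.07 to 0.07, 0.08 and 0.39.

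**Figure D4:**
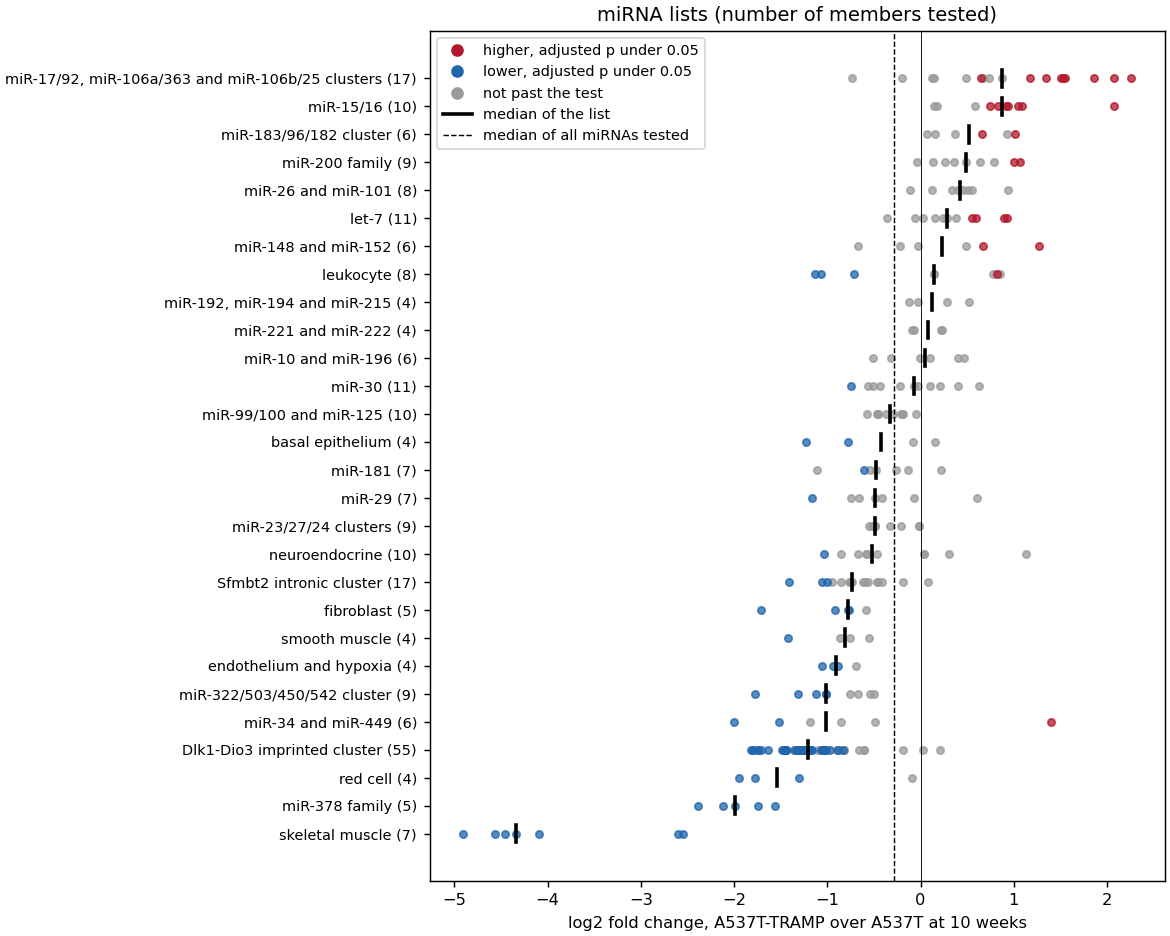
Log2 change (A537T-TRAMP minus A537T) of each tested miRNA of the lists, 1 point per miRNA, coloured where it passed the test, with the list's median as a bar; lists with fewer than 3 miRNAs tested are left out. The skeletal muscle list has a median of -4.34 and 7 of 7 lower, and the Dlk1-Dio3 list -1.21 with 42 of 55 lower, beside -0.29 for all 512 miRNAs.

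The 2 arms of a hairpin mostly moved together. For 68 hairpins both arms had a mean of at least 10 RPM, and in 55 of these the arms changed with the same sign. Both arms passed in the same direction in 14, 3 higher and 11 lower, and in 0 did they pass in opposite directions. Arms share a precursor and a library, so this is a description. A few hairpins, singled out here after their values were seen, changed in arm ratio. The log2 ratio of 5p to 3p was 2.66 in A537T-TRAMP and 1.54 in A537T for miR-15b, a difference of 1.13, and 3.75 against 2.13 for miR-31, a difference of 1.62. MiR-31-3p was at 17.4, 13.5 and 45.3 RPM against 56.5, 74.8 and 78.8, while miR-31-5p was at 343, 192 and 450 against 247, 319 and 364.

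Whether the effect of the transgene in A537T at 10 weeks differed from that elsewhere was asked by interaction contrasts over 12 libraries. None of these contrasts shares a library between its 2 effects. Of the 48 miRNAs higher here, 47 were tested in WT of 10 weeks, where 40 passed in the same direction, and 47 in KO, where 38 did. The share of all miRNAs that passed higher was 14.6% in WT and 16.9% in KO. In A537T of 30 weeks, 24 of 46 passed higher, with 8.89% of all miRNAs. Of the 121 miRNAs lower here, 35 of 120 tested passed lower in WT (9.65% of all miRNAs), 60 of 117 in KO (27.1%) and 9 of 112 in A537T of 30 weeks (3.23%). In the 3 pairs, 0 of these miRNAs passed in the opposite direction.

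The change of miR-25-3p, the leading product of the Mcm7 cluster, was 2.26 here, 2.44 in WT, 2.12 in KO and 2.04 in A537T of 30 weeks, each past the test in limma. Its levels were 3278 to 3813 RPM in WT-TRAMP and 618 to 741 in WT, much as in the A537T pair. MiR-15b-5p changed by 2.07, 2.91, 2.46 and 2.18 in the same order. MiR-365-3p changed by -2.09, -1.54, -1.69 and -2.10, past the test in all 4 pairs. The change of miR-34a-5p was -2.01 here, -2.24 in WT and -3.94 in KO, where it started from 402 to 476 RPM, and -1.05 in A537T of 30 weeks without a call (adjusted p = 0.11 in limma). The median change of the Dlk1-Dio3 miRNAs was -1.21 here, -0.42 in WT, -1.04 in KO and -0.16 in A537T of 30 weeks. The muscle list had medians of -4.34, -5.28, -1.07 and -0.42 in this order.

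**Figure D5:**
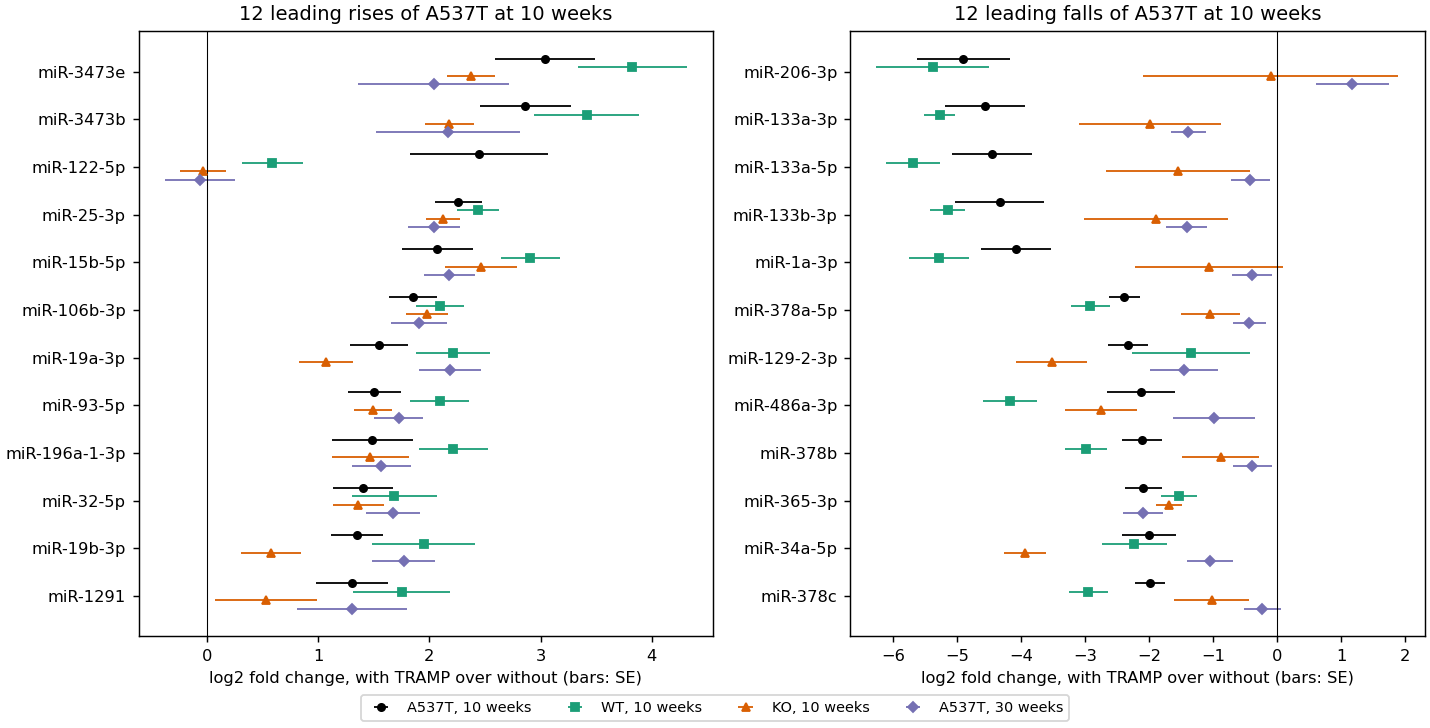
Log2 change with the TRAMP transgene in the 4 pairs (A537T, WT and KO at 10 weeks, A537T at 30 weeks) for the leading rises and falls, 1 point per pair with its SE as a bar. MiR-25-3p lies between 2.04 and 2.44 in all 4, while miR-206-3p ranges from -5.38 in WT to 1.17 in A537T of 30 weeks.

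Against WT, no difference of effects passed. Of 506 miRNAs, 0 (0.0%) had an adjusted p under 0.05 in limma, 27 had an unadjusted p under 0.05, and edgeR and DESeq2 each called 0. The smallest unadjusted p was that of miR-495-3p, with a difference of -1.58 (SE 0.51, 95% interval -2.67 to -0.48, adjusted p = 0.634 in limma). It passed when WT library 28 was left out (adjusted p = 0.038 in limma), with 1 call in all. A p that misses the threshold does not show that the effects were equal, and the interval for miR-495-3p reaches well away from 0.

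Against KO, 2 of 512 miRNAs (0.391%) passed, both arms of miR-10a, a Hox cluster miRNA. MiR-10a-5p was at 9745, 15780 and 10577 RPM in A537T-TRAMP and at 9832, 9371 and 7580 in A537T, but at 7183 to 12208 in KO-TRAMP and 19660 to 27102 in KO. Of the groups in this contrast, the KO libraries without the transgene thus stood apart. Outside it, miR-10a-5p was at 10890 to 32210 RPM in A537T of 30 weeks and 7528 to 19361 in WT of 10 weeks, so high levels were not particular to KO. The difference of the 2 effects was 1.82 (SE 0.34, adjusted p = 0.0409 in limma) for miR-10a-5p and 1.64 (SE 0.30, adjusted p = 0.0409 in limma) for miR-10a-3p, and within A537T neither arm passed (0.41 and 0.47, adjusted p = 0.199 and 0.145 in limma). With edgeR 0 miRNAs passed, with DESeq2 8, and in limma 0 when library 5, 6, 7, 31, 32, 33, 34, 35 or 36 was left out, 3 without library 4 and 12 without library 8.

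Against A537T of 30 weeks, 36 miRNAs (7.16% of those tested) passed, 35 of them with the more negative effect at 10 weeks. The 35 included 5 skeletal muscle miRNAs, 4 of the 5 miR-378 family and 11 of 53 Dlk1-Dio3 miRNAs. MiR-206-3p, at 5.74 to 32.8 RPM in A537T-TRAMP and 2.67 to 6.58 in A537T of 30 weeks, gave a difference of -6.08 (SE 1.04, adjusted p = 0.0158 in limma). MiR-1a-3p was at 2108 to 4119 and 2682 to 4558 RPM in those groups and gave -3.69 (SE 0.70, adjusted p = 0.0158 in limma). Both were thus low in all libraries of these groups of 30 weeks, and the contrast came mainly from the high levels in A537T libraries 34, 35 and 36. For miR-206-3p the mean at 30 weeks was higher in A537T-TRAMP than in A537T, so its contrast also holds a change of opposite sign at low levels. MiR-378a-5p, at 20.1 to 31.4 and 28.4 to 40.8, gave -1.95 (SE 0.35, adjusted p = 0.0158 in limma). The one miRNA with the more positive effect at 10 weeks was miR-672-5p, named after its values were seen (2.04, adjusted p = 0.0406 in limma). The count fell to 8 with TMM, 19 with edgeR and 7 after thinning to the depth of library 35. It was 0 without library 5, 3 without 14 or 35, 4 without 25, 5 without 27, 11 without 13, 19 without 36, 21 without 4 and 54 without 6, while miR-206-3p, miR-1a-3p and miR-378a-5p had an adjusted p of at most 0.0593 in limma with any 1 library left out.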

How the data were processed

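Small RNA libraries (TruSeq, NovaSeq) were made from ventral and lateral lobes. The authors merged read pairs with BBMerge, counted with miRDeep2 on GRCm38 and miRBase, and summed miRNAs of identical sequence. The deposited values are a signal, reads divided by a size factor, with 1963 miRNAs a table. Tables of the authors' own comparisons (shrunken fold changes and s-values) and lists of merged names were not used. Columns were mapped through the table names, and 0 columns remained unmatched. Whole reads were recovered for 100% of values, and each column was scaled to reads per 1000000 (RPM). Replicate columns differed by more than sampling noise. The test was limma (3.58.1) with a variance trend on log2(RPM + 1), two-sided, for means of at least 1, Benjamini-Hochberg adjusted, threshold 0.05. Its code was also run on simulated data in which all miRNAs had the same spread setting. That run does not show how the test behaves with the spread between these libraries. Alternatives were edgeR (4.0.16), DESeq2 (1.42.0), TMM, thinning, other filters, pseudocounts and weights, a total without muscle miRNAs, a fit of 36 libraries and leaving out each library; the 2 fits combining edgeR or TMM with library 35 left out were added after seeing the data. The members and lists were chosen with earlier results of these data known. Named were up to 12 rises and 12 falls past the test, averaging 10 RPM or more, whose groups did not overlap, up to 3 miRNAs per interaction, up to 3 abundant members and called members of each list, the 10 most abundant, and other arms. PCR copies were not marked by molecular identifiers, so reads are not independent molecules.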

Additional observations from a re-analysis of the deposited data

Results flagged for a closer look

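Differences of 2 kinds between effects passed the test of the difference itself, an interaction contrast in limma. For the TRAMP effect in A537T minus that in KO at 10 weeks, 2 miRNAs passed, miR-10a-5p with 1.82 and miR-10a-3p with 1.64. For the TRAMP effect in A537T at 10 weeks minus that at 30 weeks, 36 miRNAs passed, with miR-206-3p at -6.08, miR-1a-3p at -3.69 and miR-378a-5p at -1.95 as the 3 named. The part of the skeletal muscle share, 3.72% to 13.7% in A537T of 10 weeks and 0.355% to 0.545% in A537T of 30 weeks, in the latter was not tested.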

How the results depend on the processing

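No paired analysis was possible because the columns carry no replicate number. The count of 169 miRNAs past the test in A537T-TRAMP against A537T was 83 after thinning all libraries to the depth of library 35, 89 with edgeR and 89 with TMM when library 35 was left out, and 87 to 152 with 1 library left out at a time. The other alternatives stayed within 1.5 times of it, at 117 to 189. The interaction with WT, with 0 calls, had 0 to 1 with 1 library left out. That with KO, with 2, had 4 with a pseudocount of 10, 12 with library weights, 8 with DESeq2, 1 after thinning and 0 with no filter, a total without muscle miRNAs, no variance trend, edgeR or the fit of all 36 libraries, and 0 to 12 with 1 library left out. That with 30 weeks, with 36, had 56 with a total without muscle miRNAs, 19 with edgeR, 13 with the fit of all 36 libraries, 8 with TMM, 7 after thinning, 0 with no filter, and 0 to 54 with 1 library left out. The causes of these shifts were not tested. Of the named miRNAs that passed, none changed sign. Of those that did not pass, miR-99a-5p took a positive sign with TMM (0.113), edgeR (0.248), DESeq2 (0.199) and edgeR or TMM without library 35 (0.176 and 0.084), and ran from -0.317 to 0.052 with 1 library left out. Over the same runs miR-21a-5p ran from -0.01 to 0.655, miR-92a-3p from -0.038 to 0.329, miR-200b-3p from -0.0 to 0.452 and miR-31-5p from -0.253 to 0.359, the last also at -0.108 with a total without muscle miRNAs. Depth limits library 35, where 3 reads are 4.58 RPM.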
